A study of Mus musculus with 4 samples.

Results

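The genes described here encode the enzymes that cut the extracellular matrix and the proteins that restrain them. They are the matrix metalloproteinases (Mmp), the tissue inhibitors of metalloproteinases (Timp), the secreted Adamts proteases and the Adamts-like proteins, which share the Adamts ancillary domains but have no protease domain. Members were every gene whose single symbol in the platform annotation was one of these names followed by a number and, in some, the letter a or b. This rule gave 42 genes of 18193 with a single symbol, carried by 78 probe sets, and it used no measured value. The members and gene lists were, however, proposed with earlier results of these data known.

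The RNA came from mouse liver cell lines and was read on 4 arrays of the Affymetrix Mouse430_2 type, which cover a gene with 1 or more probe sets. MMH-D3, a differentiated hepatocytic line, occupied 2 of them. The others carried resident liver stem cell (RLSC) lines, 1 array each: MetE14/3, which goes back to clone B2 and to liver of a cyto-Met transgenic embryo, and WTE14/1, derived from wild-type embryo liver. Both embryos were at 14 days post coitum. The RLSC lines had been selected for palmate morphology and expanded for about 50 generations in basal medium before freezing, and the labels give all 4 samples the same primary liver culture on collagen I with epidermal growth factor, insulin-like growth factor II and insulin. The promoter of the cyto-Met transgene and the animal behind MMH-D3 were not described in the labels. The title of the wild-type sample reads WTE14/1 and its source name WT E14/3. Whether separate cultures fed the MMH-D3 arrays is not stated, and their spread may be technical. The RLSC spread includes the difference between the lines.

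In liver as elsewhere, Mmp enzymes are made as inactive precursors and become active when the propeptide is removed. Mmp14, anchored in the membrane, removes it from Mmp2 with Timp2 as an adaptor, and Timp proteins then block the active site. Adamts proteases act mainly on proteoglycans, procollagens and microfibril proteins. During liver fibrosis and regeneration the balance between these enzymes and the Timp proteins sets how fast matrix is turned over, and stellate cells, macrophages and hepatocytes all contribute to it.

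Some facts of the arrays bear on every value below. The signals are linear intensities, and the trimmed mean of each array was 200.001. Array medians ranged from 16.9 to 28.02. The 24 poly-A control probe sets, RNA spiked in before labelling, gave a median ratio of 10.59 between one pair of arrays (MetE14/3 with MMH-D3 array 1) and the other (WTE14/1 with MMH-D3 array 2). Each pair holds 1 array per group. Values given below as within the first and the second pair are MetE14/3 minus MMH-D3 array 1 and WTE14/1 minus MMH-D3 array 2. Hepatocyte markers (6 of 8 with a probe set) summed to 5493 and 9792 in MMH-D3 and to 369 and 167.1 in RLSC, and albumin itself stood at 44.7 and 440.5 in MMH-D3. Markers of endothelial cells (5 of 5 genes, sums of 23.8 to 76.69 in MMH-D3 and 40.2 to 73.25 in RLSC) and macrophages (6 of 6, 110.7 to 178.7 and 109.7 to 175.4) were low in both groups, with Pecam1, Cdh5, Tek, Emcn, Ptprc, Lyz2 and Clec4f below the filter. Stellate markers (6 of 6) summed to 47.8 and 94.06 in MMH-D3 and to 300.2 and 173 in RLSC, where Pdgfrb made up most of the sum in MetE14/3 (248.1) and stood at 65.79 in WTE14/1. Lrat, Reln and Hand2 were below the filter. Fibroblast markers (6 of 6) summed to 69.3 and 112 in MMH-D3 and to 64.9 and 199.2 in RLSC, with Col1a1, Dcn and Lum below the filter. Cholangiocyte markers (4 of 4) summed to 13390 and 16370 in MMH-D3 and to 8919 and 4201 in RLSC, and mesothelial markers (4 of 4) to 17110 and 24350 and to 10140 and 5038, with Krt19 the largest part of both lists. Within the cholangiocyte list, Krt7, Krt19 and Epcam were lower in RLSC. Sox9 went the other way, with 27.6 and 13.49 in MMH-D3 and 123 and 220.2 in MetE14/3 and WTE14/1. Neutrophil markers (4 of 4) summed to 270.4 and 300.8 in MMH-D3 and to 47.8 and 67.88 in RLSC, mostly from S100a8 in MMH-D3. By the test used below, 2 hepatocyte markers (Apob and Afp), 1 mesothelial and 1 neutrophil marker were lower in RLSC, and no marker of any of the 8 lists was higher. The part of these marker differences in the results below was not tested. In cultures measured in bulk, fewer cells making an RNA and less RNA per cell cannot be told apart.

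The comparison of RLSC with MMH-D3 asked which matrix proteases and inhibitors differed between the stem cell lines and the differentiated line. The inhibitor Timp3 and the protease Adamts6 were higher in RLSC, by 6.57 and 3.79 on the log2 scale. Adamts6 passed only at the threshold (limma adjusted p = 0.0488). The collagenase Mmp13 had the largest difference in the other direction, -6.81, but did not pass the test (limma adjusted p = 0.0561). With the array pair as a block, Mmp13 passed and Adamts6 did not. The inhibitors Timp1 and Timp2 and the membrane protease Mmp14 gave clear signals in both groups, with differences of 1.27, -0.52 and 1.65 that did not pass either. The gelatinases Mmp2 and Mmp9 lay near or below the lowest level analysed on all arrays.

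A gene was tested when at least 1 of its probe sets had a mean of normalized log2 values at or above the 40th percentile, which corresponds to a signal of about 11.7, and it was then read through its probe set with the highest mean. Of the 42 genes, 24 were tested and 18 lay below this level. Signals were taken as log2(value + 4), quantile normalized and fitted with limma over all 12598 genes tested. Every difference is RLSC minus MMH-D3 with its moderated standard error (SE), and every p is adjusted over all these genes by the method of Benjamini and Hochberg. Signals themselves are the deposited ones. Of the 24 tested, 2 passed where 0.913% of all genes tested did. Both were higher in RLSC, where 0.397% of all genes were, none was lower, where 0.516% were, and 22 did not pass. At an unadjusted p under 0.05 there were 7 higher and 3 lower, where 12.4% of all genes tested lay under that p. The median difference of the 24 was 1.22 and that of all genes 0.0305. Genes that cleared the level only through the group in which they were high had to differ, so these figures describe the tested genes and not all 42. With no filter, the median over all 42 was 0.597. With 1 array left out, the median of the members then tested ran from 0.33 (without WTE14/1) to 1.21 (without MetE14/3).

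**Figure D1:**
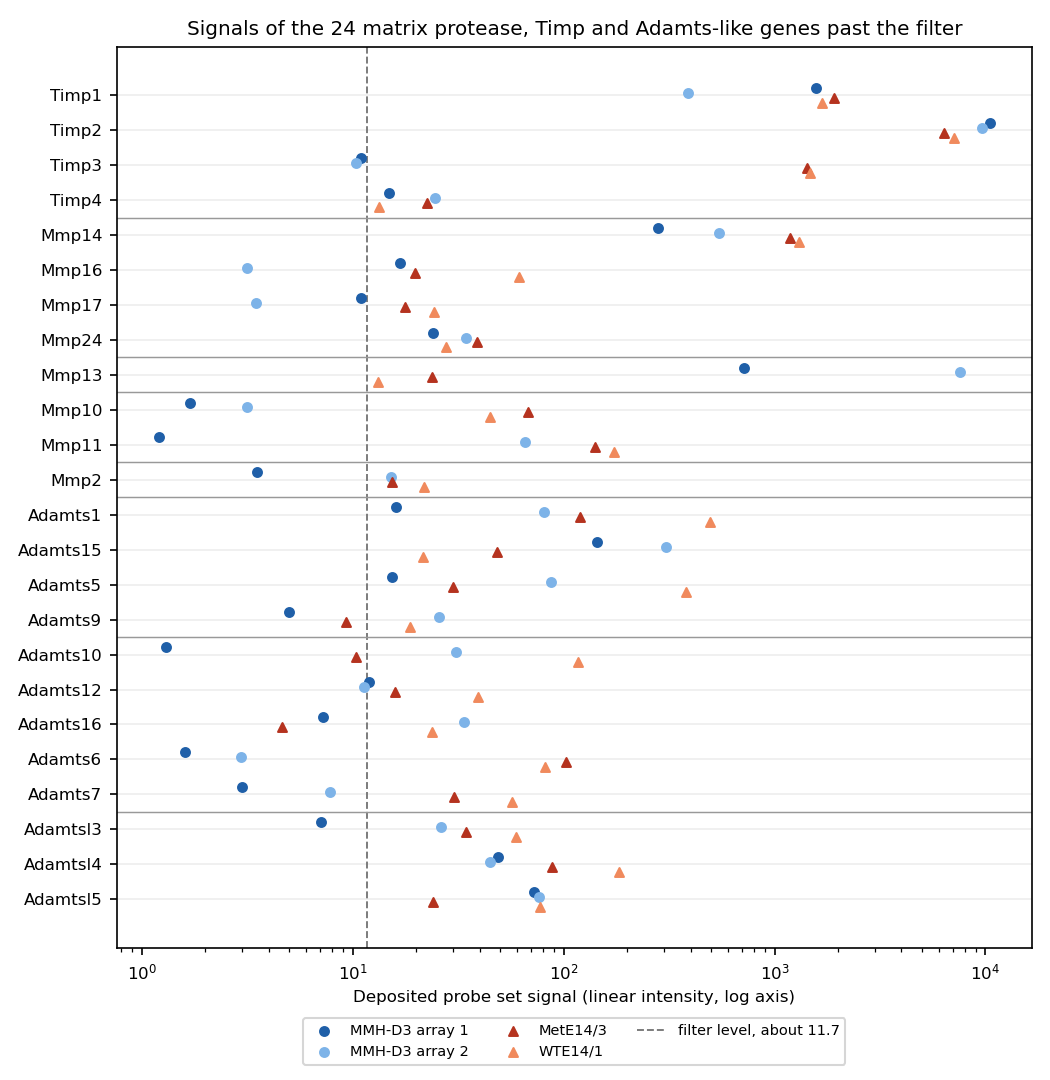
Deposited signal (x axis, linear intensity on a log axis) of the 24 tested genes in each of the 4 arrays, 1 symbol per array, read through the probe set with the highest mean and grouped by type; the dashed line marks the filter level of about 11.7. Timp3 (11 and 10.36) and Adamts6 (1.6 and 2.961) are below that line on both MMH-D3 arrays and far above it in both RLSC lines, while Mmp13 shows the opposite order.

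The inhibitors come first, since the member with the smallest p in the set is one of them. Timp3 binds to the matrix and blocks most Mmp enzymes as well as several Adam and Adamts proteases. MetE14/3 gave a Timp3 signal of 1429 and WTE14/1 one of 1475, while MMH-D3 arrays 1 and 2 gave 11 and 10.36. Both RLSC lines were high, both MMH-D3 arrays lay at about the filter level, and the groups did not overlap. The difference was 6.57 (SE 0.45, limma adjusted p = 0.015), or 94.9-fold on the log2(value + 4) scale. Because MMH-D3 lay so low, the size depends on the pseudocount, and it was 6.88 with a pseudocount of 1 and 5.75 with 16. All 4 Timp3 probe sets separated the groups. In MMH-D3 they ranged from 3.2 to 15.81 and in RLSC from 588.6 to 1703. In a fit on single probe sets, added after the data had been seen, each of the 4 passed, where 0.733% of all probe sets tested did, with differences of 4.94 to 7.59 (limma adjusted p = 0.0117 to 0.0232). Within the array pairs the Timp3 difference was 6.33 for MetE14/3 minus MMH-D3 array 1 and 6.81 for WTE14/1 minus MMH-D3 array 2. Timp3 no longer passed without MMH-D3 array 1 (6.65, limma adjusted p = 0.073) and without array 2 (6.42, limma adjusted p = 0.236), where no gene at all passed in limma, though 2197 and 1000 had an unadjusted p under 0.05.

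Timp1, a secreted inhibitor induced in injured liver, read 1916 (MetE14/3) and 1671 (WTE14/1), compared with 1566 and 387.1 on MMH-D3 arrays 1 and 2. The RLSC lines lay above both MMH-D3 arrays, but array 1 was close to them. The difference was 1.27 (SE 0.64, limma adjusted p = 0.509), with a 95% interval of -0.28 to 2.83. It was 0.36 within the first array pair and 2.18 within the second.

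Timp2, the inhibitor that also helps Mmp14 to activate Mmp2, was read by 6 probe sets. The one with the highest mean gave 6371 for MetE14/3, 7090 for WTE14/1 and 10560 and 9676 for MMH-D3, so both RLSC lines lay lower and the groups did not overlap. At -0.52 (SE 0.21, limma adjusted p = 0.384) it did not pass, and its interval ran from -1.02 to -0.02. It was -0.63 within the first array pair and -0.41 within the second. All 6 probe sets had this sign, with differences of -0.74 to -0.28, and 4 of the 6 did not overlap between groups. By gene, 21.4% of all genes tested lay below both MMH-D3 arrays in both lines. The weakest Timp2 probe set read 12.35 to 18.65, near the filter level, and its groups overlapped. For Timp4, the remaining inhibitor, signals reached 22.4 and 13.39 in RLSC and 14.8 and 24.45 in MMH-D3, an overlap near the filter level. Its difference was -0.28 (SE 0.61, limma adjusted p = 0.92), with 0.32 within the first array pair and -0.88 within the second.

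**Figure D2:**
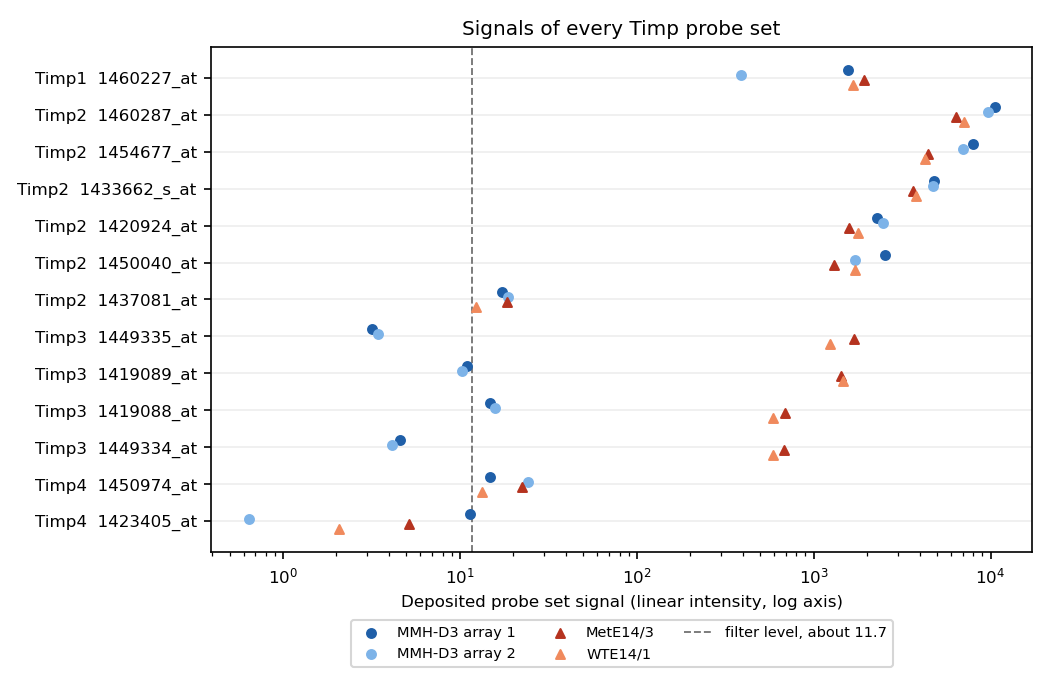
Deposited signal (x axis, linear intensity on a log axis) of all 13 Timp probe sets in the 4 arrays, 1 symbol per array, with the filter level of about 11.7 as a dashed line. The 4 Timp3 probe sets separate the groups widely, from at most 15.81 in MMH-D3 to at least 588.6 in RLSC, while within each Timp2 probe set the groups stay close together.

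Inhibitor genes often lie inside synapsin genes, and the RefSeq annotation places Timp1 within Syn1, Timp3 within Syn3 and Timp4 within Syn2. Synapsins are proteins of neuronal synaptic vesicles. The 3 Syn3 probe sets gave 4.1 to 43.84 over the 4 arrays, the 6 Syn2 probe sets 0.4 to 22.53 and the single Syn1 probe set 3.2 to 28.5. No host gene thus exceeded 43.84 on any array. The Syn1 probe set read 28.5 and 9.282 in MetE14/3 and WTE14/1 against 3.2 and 3.334 in MMH-D3. Of these, MetE14/3 alone exceeded the filter level. Any relation to Timp1, whose own difference did not pass, was not tested. The Syn3 probe sets did not share a direction. The stretch of 250 bases before the annotated Timp3 start (chr10:86300162-86300411, plus strand, GRCm38.p6, from RefSeq) is shown because Timp3 had the smallest p of the set. It held 18 CpG dinucleotides, against a median of 6 over 32851 RefSeq promoter windows of the same length, and neither of the motifs searched for below. This count is not particular to Timp3, since windows of members ran from 0 (Mmp12) to 39 (Adamtsl3). Those of Timp1, Timp2 and Timp4 held 6, 21 and 2.
Timp3: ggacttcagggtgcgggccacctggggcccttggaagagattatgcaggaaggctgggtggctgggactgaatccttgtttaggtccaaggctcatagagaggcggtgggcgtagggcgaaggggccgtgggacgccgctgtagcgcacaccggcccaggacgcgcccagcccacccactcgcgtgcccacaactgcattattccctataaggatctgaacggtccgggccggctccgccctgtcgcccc

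Adamts6, a secreted protease related to Adamts10 and acting on microfibril components, was the other gene past the test. MetE14/3 read 102.4 and WTE14/1 read 81.46, and the MMH-D3 arrays read 1.6 and 2.961. Both RLSC lines stood well above the filter level and both MMH-D3 arrays below it, without overlap. The difference was 3.79 (SE 0.56, limma adjusted p = 0.0488), 4.15 within the first array pair and 3.42 within the second. The second Adamts6 probe set, below the filter, had the same order, with 15.8 and 17.63 in RLSC and 0.5 and 8.486 in MMH-D3. The adjusted p sat at the threshold. With the array pair as a block it was 0.0534, and without MMH-D3 array 1, MMH-D3 array 2 or WTE14/1 it was 0.105, 0.307 and 0.0913. Without MetE14/3 the gene fell below the filter. The size was 4.65 with a pseudocount of 1 and 2.45 with 16, and with neither did the gene pass.

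Among the collagenases, which cut fibrillar collagen, Mmp13 alone was tested. On MMH-D3 arrays 1 and 2 it read 719.5 and 7603, in MetE14/3 23.8 and in WTE14/1 13.17. Both MMH-D3 arrays were high, but they differed from each other by -3.38 on the normalized log2 scale, array 1 minus array 2. The difference between groups was -6.81 (SE 1.09, limma adjusted p = 0.0561), with an interval of -9.45 to -4.18. It was -4.60 within the first array pair and -9.03 within the second. The gene passed with the array pair as a block (limma adjusted p = 0.0452), on the deposited values without further normalization (0.0386) and with a common median (0.0314), and the adjusted p ranged from 0.0314 to 0.255 over its alternatives. The other collagenases, Mmp1a, Mmp1b and Mmp8, lay below the filter, with highest signals of 9.4, 10.6 and 15.83.

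Stromelysins cleave proteoglycans and can activate other Mmp precursors. For Mmp10, a stromelysin able to activate procollagenases, MetE14/3 and WTE14/1 gave 68.1 and 44.76 and the MMH-D3 arrays 1.7 and 3.153. The groups were apart, and the difference was 3.00 (SE 0.61), but the gene did not pass (limma adjusted p = 0.103). Within the pairs it was 3.54 and 2.46. Mmp11, which furin activates inside the cell, gave 140.3 and 174.2 in RLSC and 1.2 and 65.42 in MMH-D3. The RLSC values lay close together while the MMH-D3 arrays differed widely, and at 3.02 (SE 1.13, limma adjusted p = 0.349) the gene missed the threshold. It was 4.72 within the first array pair and 1.31 within the second, and 1.18 to 4.80 when 1 array was left out. Mmp3, the best known stromelysin, stayed between 7.2 and 14.29 on all arrays and was not tested.

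Mmp13 and Mmp10 belong to one cluster. In the order of the RefSeq annotation, chromosome 9 carries 10 Mmp genes with no other protein-coding gene between them, Mmp13, Mmp12, Mmp1b, Mmp3, Mmp1a, Mmp10, Mmp8, Mmp27, Mmp20 and Mmp7, and 9 of them were members here. Mmp13, at one end, had its high signals in MMH-D3. Mmp10, in the middle, exceeded the filter level in the RLSC lines only. The other 7 were not tested, and their highest signal on any array was 15.83. The neighbours Mmp3, between 7.2 and 14.29, and Mmp1a, between 1.1 and 9.4, thus lay between a gene that was high in MMH-D3 and one that was higher in RLSC. Mmp3 had the order of Mmp10, though close to the filter level. It read 11.9 and 14.29 in MetE14/3 and WTE14/1, and 7.2 and 10.84 in MMH-D3.

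**Figure D3:**
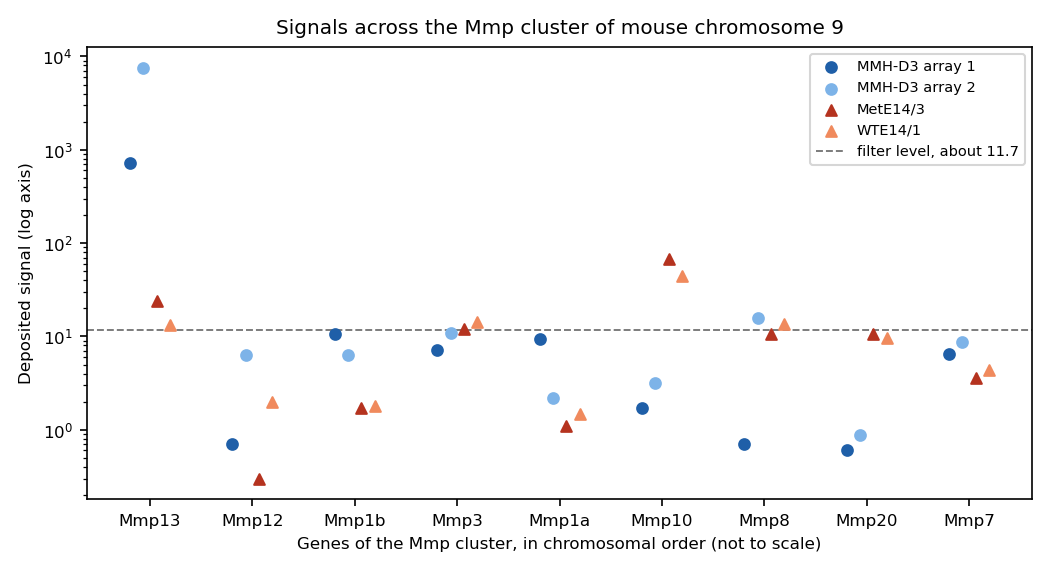
Deposited signal (y axis, linear intensity on a log axis) of the 9 measured genes of the Mmp cluster on chromosome 9, in chromosomal order (x axis, not to scale), 1 symbol per array; the dashed line is the filter level of about 11.7. Mmp13 reaches 719.5 and 7603 in MMH-D3 and Mmp10 reaches 68.1 and 44.76 in RLSC, while no other gene exceeds 15.83.

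The start regions of this cluster share letters. A search of the 250 bases before each annotated start, on both strands, looked for the binding motif of the AP-1 factors of the Fos and Jun families, TGAGTCA, whose reverse complement reads TGACTCA, and for the TATA box, spelled as TATAAA, whose reverse complement reads TTTATA. The letters of these motifs do not overlap in the windows printed below. RefSeq windows matched 27 of the 42 genes by symbol. The AP-1 letters stood before 7 genes, all of them in the cluster, and were found in 4.46% of 32851 RefSeq windows. The TATA letters stood before 9 genes, 7 of them in the cluster, and were found in 12.4% of windows. Of the 9 cluster genes with a window, 6 had both motifs, namely Mmp13, Mmp1b, Mmp3, Mmp1a, Mmp10 and Mmp7. These genes are related by duplication and their windows are not independent. The windows of Mmp13, Mmp10 and Mmp3 are shown because these 3 carry the same motifs, Mmp13 and Mmp10 are the cluster genes that were tested and Mmp3 lies between them. They are chr9:7272264-7272513, chr9:7502092-7502341 and chr9:7445572-7445821, all on the plus strand of GRCm38.p6 and from RefSeq, with the AP-1 and TATA letters in capitals.
Mmp13: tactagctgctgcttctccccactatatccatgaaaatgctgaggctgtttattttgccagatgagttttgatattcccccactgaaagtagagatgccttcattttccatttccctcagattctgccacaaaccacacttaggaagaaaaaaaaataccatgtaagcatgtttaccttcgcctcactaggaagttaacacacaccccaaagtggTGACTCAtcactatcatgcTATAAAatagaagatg
Mmp10: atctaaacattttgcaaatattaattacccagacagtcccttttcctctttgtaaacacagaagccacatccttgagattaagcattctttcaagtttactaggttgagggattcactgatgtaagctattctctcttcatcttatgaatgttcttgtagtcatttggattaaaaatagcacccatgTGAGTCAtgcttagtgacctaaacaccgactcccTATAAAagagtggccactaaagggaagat
Mmp3: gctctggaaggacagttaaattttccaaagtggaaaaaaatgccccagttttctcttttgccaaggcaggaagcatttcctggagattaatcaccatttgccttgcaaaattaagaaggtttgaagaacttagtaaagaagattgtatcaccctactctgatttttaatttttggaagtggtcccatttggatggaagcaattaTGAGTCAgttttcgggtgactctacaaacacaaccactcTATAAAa

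In these windows the first base of the AP-1 letters lay at -35 for Mmp13, -63 for Mmp10 and -46 for Mmp3 from the annotated start, and that of the TATA letters at -16, -29 and -7. A match is a description of the sequence, and binding was not measured. The AP-1 subunits in the list of related genes were picked for mention after their values were seen, and none of the 6 passed. Fos read 752.2 and 4619 in MMH-D3 and 71.2 and 114.7 in RLSC (difference -4.40, SE 0.86, limma adjusted p = 0.0933). Junb read 1272 and 2278 in MMH-D3 and 676.2 and 396.5 in RLSC (difference -1.72, SE 0.49, limma adjusted p = 0.211). Both had RLSC signals below both MMH-D3 arrays, where 21.4% of all genes tested did so. Of the genes with the AP-1 letters, Mmp13 was high in MMH-D3, Mmp10 was higher in RLSC and Mmp3 stayed between 7.2 and 14.29. Any relation of Fos or Junb to these genes was not tested. Jun went the other way, with 823.3 and 909.5 in RLSC against 626.2 and 390.1 in MMH-D3. Its RLSC signals lay above both MMH-D3 arrays, where 20.8% of all genes tested did so. Jun, Fosl1, Jund and Fosl2 had differences of 0.82 (SE 0.42), 0.33 (SE 0.49), 0.11 (SE 0.35) and 0.06 (SE 0.39).

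The membrane-anchored proteases were all tested and none passed. Mmp14, the activator of Mmp2 and itself a collagenase, read 1187 and 1311 in MetE14/3 and WTE14/1, and 278.9 and 545.5 in MMH-D3. Both RLSC lines lay above both MMH-D3 arrays. The difference was 1.65 (SE 0.44, limma adjusted p = 0.187), with an interval of 0.59 to 2.71. Its 3 probe sets agreed in sign, with differences of 1.19 to 1.69, and none overlapped between groups. Mmp14 was 1.96 higher within the first array pair and 1.34 within the second. Mmp16, Mmp17 and Mmp24 reached at most 61.26, 24.39 and 38.7 through the probe sets with the highest mean, and their differences were 1.48, 1.02 and -0.10. A further probe set past the filter reached 70.28 for Mmp16 (difference 0.59) and 48.24 for Mmp24 (difference -1.48), without passing in the fit on single probe sets. The gelatinase Mmp2, the best known precursor that Mmp14 activates, reached 15.4 and 21.8 in RLSC and 3.5 and 15.11 in MMH-D3 (difference 0.75, SE 0.64, limma adjusted p = 0.743, and 1.29 and 0.21 within the pairs). The gelatinase Mmp9 was below the filter through both probe sets, at 1.785 to 17.63.

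Of the 7 proteoglycan-cleaving Adamts proteases, 4 were tested and none passed. Adamts1, which cuts versican and aggrecan, read 119.2 in MetE14/3, 492.6 in WTE14/1 and 16.1 and 80.85 in MMH-D3. The groups did not overlap, though each was spread over several fold. Its difference was 2.47 (SE 0.87, limma adjusted p = 0.32), 2.33 within the first array pair and 2.61 within the second. Adamts15, a protease of the same kind, read 143.7 and 305 in MMH-D3 and 48.5 and 21.6 in RLSC. It was the only tested protease of this kind below both MMH-D3 arrays in both lines, with a difference of -2.76 (SE 0.65, limma adjusted p = 0.144) and an interval of -4.33 to -1.19. It was -1.65 within the first array pair and -3.87 within the second. Adamts5, the chief aggrecanase of cartilage, read 29.8 in MetE14/3, 382.2 in WTE14/1 and 15.3 and 87.26 in MMH-D3, so the groups overlapped (difference 1.35, SE 1.19, with 0.61 and 2.10 within the pairs). Without WTE14/1 the Adamts5 difference turned to -0.37, and without MMH-D3 array 1 it was 0.38. Adamts9 differed by -0.08 (SE 0.70), and Adamts4, Adamts8 and Adamts20 were below the filter, with highest signals of 21.4, 30.43 and 7.6. Adamts1 and Adamts5 are direct neighbours on chromosome 16, and Adamts15 and Adamts8 on chromosome 9. The first pair had its highest signal in WTE14/1 at both genes.

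Of the remaining Adamts genes, Adamts7, a protease of cartilage oligomeric matrix protein, read 30.3 and 56.67 in RLSC and 3 and 7.762 in MMH-D3. The groups were apart by 2.17 (SE 0.58), short of the threshold (limma adjusted p = 0.19). Adamts12, its closest relative, differed by 0.70 (SE 0.59), Adamts10 by 1.59 (SE 1.20) and Adamts16 by -0.62 (SE 0.79). The Adamts10 difference was 0.27 without MMH-D3 array 1 and 2.97 without MetE14/3, and 1.47 and 1.71 within the pairs. Adamts18 and Adamts19 were below the filter, as was Adamts3, the single procollagen propeptidase measured, whose 2 probe sets gave 2.5 to 15.44. Among the Adamts-like proteins, Adamtsl4, which binds fibrillin, had 87.9 and 182.9 in the RLSC lines and 48.9 and 44.65 in MMH-D3 (difference 1.19, SE 0.55, limma adjusted p = 0.464), and it was 0.486 higher within the first pair and 1.899 within the second. Adamtsl3 differed by 1.25 (SE 0.62) and Adamtsl5 by -0.87 (SE 0.59), and Adamtsl1 and Adamtsl2 were below the filter, at no more than 13.57 and 14.52. Outside the cluster the untested Mmp genes were Mmp9, Mmp19 and Mmp23. Mmp19 reached 16.55 and Mmp23 41.27, both on MMH-D3 array 2.

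Over the 24 tested genes, both RLSC lines lay above both MMH-D3 arrays at 14, where 20.8% of all genes tested did so, and below both at 4, where 21.4% did so. The 14 were Timp1, Timp3, Mmp2, Mmp10, Mmp11, Mmp14, Mmp16, Mmp17, Adamts1, Adamts6, Adamts7, Adamts12, Adamtsl3 and Adamtsl4, and the 4 were Timp2, Mmp13, Adamts15 and Adamtsl5. Adamtsl5 was below only after normalization, its deposited signals of 24.1 and 76.94 in RLSC overlapping with 72.2 and 76.48. Of the 14, Timp3, Mmp10, Mmp17, Adamts6 and Adamts7 lay below the filter level on both MMH-D3 arrays and cleared it through RLSC. Such genes had to differ, so the counts describe the tested genes and not all 42. Among untested members, after normalization, RLSC lay below both MMH-D3 arrays at Mmp1a, Mmp1b, Mmp7, Mmp19, Mmp23 and Adamts20, by the probe set with the highest mean. It lay above both at Mmp3, Mmp20 and Adamtsl2. Apart from Mmp23 on MMH-D3 array 2 (41.27), these signals were near or below the filter level. The other probe set of Mmp19 and that of Mmp23 overlapped between groups. On deposited signals Mmp23 overlapped through both. The share over all genes below the filter was not computed, so these names are a description only. With 2 arrays a group, an exact permutation test of 1 gene could not go below p = 0.333. Adamts9, Mmp24 and Timp4 had opposite signs within the array pairs, and the other tested genes kept theirs. Mmp16 kept it at just 0.02 within the first pair, against 2.94 within the second. How often all genes tested kept their sign was not computed.

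**Figure D4:**
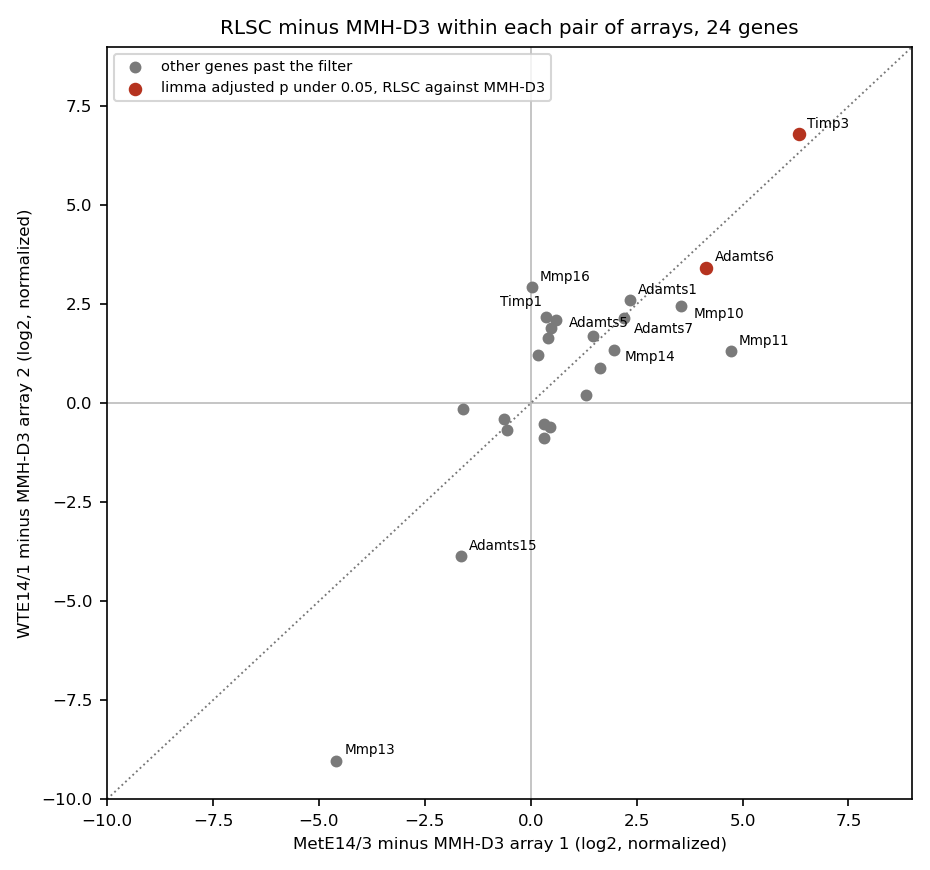
Normalized log2 difference of each of the 24 tested genes within the array pair of MetE14/3 and MMH-D3 array 1 (x axis) and within that of WTE14/1 and MMH-D3 array 2 (y axis), with the line of equality dotted; red points passed the limma test. Timp3 (6.33 and 6.81) and Adamts6 (4.15 and 3.42) lie near the line, Mmp13 (-4.60 and -9.03) is far below it.

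The RLSC lines were also set against each other, MetE14/3 from a transgenic and WTE14/1 from a wild-type embryo, on 1 array each, so these values have no replicate check. Most of the family was alike within 4-fold. Of the 24 tested genes, 2 were at least 4-fold apart, where 5.13% of all genes were, both higher in WTE14/1, where 2.33% of all genes tested were, and none was as much higher in MetE14/3, where 2.8% were. Adamts5 had 382.2 in WTE14/1 and 29.8 in MetE14/3, a difference of -3.39 (MetE14/3 minus WTE14/1, log2). Its other 2 probe sets past the filter also read higher in WTE14/1, with 411.2 against 3.2 and 136 against 25.8. Adamts10, a protease of microfibrils, had 116.4 and 10.4, a difference of -2.81, and Adamts1 stood at -1.99, just under 4-fold. The arrays of MMH-D3, a single line, differed by at least 4-fold at 3 of the genes, all higher on array 2, against 5.96% of all genes tested. These were Mmp11 (-3.59, array 1 minus array 2), Mmp13 (-3.38) and Adamts10 (-2.57). WTE14/1 and MMH-D3 array 2 share an array pair. Adamts5, Adamts10 and Adamts1 were higher on the array of that pair in both groups, by -1.90, -2.57 and -1.72 between the MMH-D3 arrays, so line and array pair cannot be told apart for them. In a limma fit of 3 lines on 4 arrays, which takes its spread from the MMH-D3 arrays alone with 1 residual degree of freedom, none of the 24 passed. The smallest limma adjusted p was 0.686, for Adamts5, the only one of them with an unadjusted p under 0.05, and 587 of all genes had such a p.

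Of the inhibitors, Timp3 differed by -0.10 and Timp2 by -0.02 between MetE14/3 and WTE14/1, and by 0.38 and 0.20 between the MMH-D3 arrays. Mmp14 differed by -0.22 between the lines and by -0.84 between the MMH-D3 arrays. Timp1 differed by 0.12 between the lines and was 1.95 higher on MMH-D3 array 1 than on array 2. Timp4, at 22.4 and 13.39, differed by 0.96 between the lines.

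**Figure D5:**
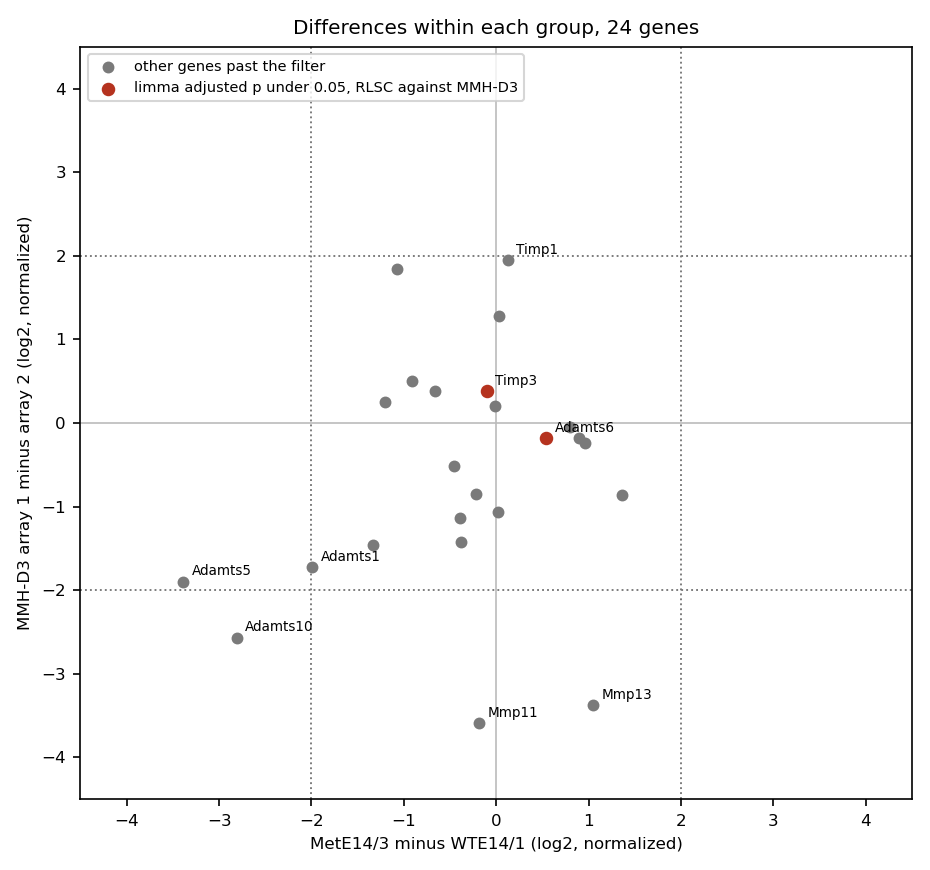
Normalized log2 difference between the RLSC lines (x axis, MetE14/3 minus WTE14/1) and between the MMH-D3 arrays (y axis, array 1 minus array 2) for the 24 tested genes; dotted lines mark 4-fold and red points passed the limma test between groups. Adamts5 and Adamts10 pass 4-fold between the lines, Adamts10, Mmp11 and Mmp13 between the MMH-D3 arrays, and Timp3 and Adamts6 are near 0 on both axes.

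A list of 83 genes that act with these proteases covered plasminogen activation, convertases, membrane regulators, clearance receptors, other inhibitors, matrix substrates, Adam sheddases and the factors that induce Mmp genes. Of these, 78 had a probe set and 57 were tested. The list had 3 genes higher in RLSC (0.397% of all genes were) and none lower (0.516%), and 54 did not pass. At an unadjusted p under 0.05 there were 12 higher and 11 lower, where 12.4% of all genes in both directions had such a p. The median difference of the 57 was 0.33. The genes that passed were the matrix substrates fibronectin (Fn1) and tenascin C (Tnc) and the matricellular protein Thbs1, which binds several matrix proteases. Fn1 read 5433 and 7927 in MetE14/3 and WTE14/1, and 825.4 and 1269 in MMH-D3, without overlap (difference 2.67, SE 0.35, limma adjusted p = 0.0372). Tnc gave 461.6 and 1588 against 7.1 and 26.78 (difference 5.49, SE 0.76, limma adjusted p = 0.0402), and Thbs1 4791 and 3222 against 49.3 and 11.89 (7.01, SE 0.74, limma adjusted p = 0.0328). Within the first and second array pair the differences were 2.78 and 2.55 for Fn1, 5.16 and 5.83 for Tnc and 6.22 and 7.80 for Thbs1. Fn1 did not pass when any of the 4 arrays was left out (limma adjusted p = 0.0577 to 0.255). Tnc did not pass without MMH-D3 array 1 (0.108), array 2 (0.255) or WTE14/1 (0.0763), and Thbs1 did not pass without array 1 (0.073) or array 2 (0.236).

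The regulators fixed for mention did not pass. Plat, tissue plasminogen activator, read 794.8 and 1147 in RLSC and 894.2 and 613.5 in MMH-D3, which overlapped (difference 0.40, SE 0.42), with -0.17 within the first pair and 0.96 within the second. The activator Plau, urokinase, had 79.6 and 12.12 against 25.2 and 2.604 (difference 1.12, SE 1.16, with 1.18 and 1.07 within the pairs). Its receptor Plaur gave 2341 and 1085 against 3538 and 4683, lower in both lines, with a difference of -1.28 (SE 0.43, limma adjusted p = 0.293) that was -0.49 within the first pair and -2.07 within the second. Reck, a membrane-anchored inhibitor of Mmp2, Mmp9 and Mmp14, gave 26.8 and 45.79 against 11.3 and 11.22 (difference 1.15, SE 0.55, with 0.85 and 1.45 within the pairs). Bsg, the Mmp inducer basigin, was even across arrays, with 4081 and 4491 against 4299 and 3883 (difference 0.14, SE 0.24, interval -0.45 to 0.73), and its sign turned with a common median (-0.14).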

How the data were processed

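The deposited values are probe set signals, linear intensities that, per the submitters' processing notes, the authors made with GCOS; its version and algorithm were not given in the sources used here. Names came from the platform annotation. Of 45101 probe sets, 64 controls were left out. Signals entered as log2(value + 4), the pseudocount being near the 20th percentile (3.77). Array medians differed by 0.614 on the log2 scale, and quantile normalization was applied. The two-sided test was limma (version 3.58.1, R version 4.3.3), using lmFit and a trended eBayes with 2 residual and 4.24 prior degrees of freedom. Benjamini-Hochberg adjustment ran over 12598 genes with a threshold of 0.05. The script was tested on simulated data. The number of arrays limits the precision, and p-values reflect the spread between these 4 samples alone, which may be technical.

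The members, gene lists and rules were chosen with earlier results of these data known. Values were to be given for every member past the test, all Timp genes, the 10 with the highest mean signal, those with a signal of at least 100 on an array and at least 4-fold apart between the RLSC lines or between MMH-D3 and both of them, and Mmp2, Mmp9, Mmp13, Mmp14, Adamts1 and Adamts5. Other members named were picked to account for the families. Of the related genes, those past the test and Plat, Plau, Plaur, Reck and Bsg were named. RefSeq (GRCm38.p6) gave gene order and promoter windows, and all 42 members matched it by Entrez identifier. No genome build is named for the arrays.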

Additional observations from a re-analysis of the deposited data

How the results depend on the processing

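The precision is limited by 2 arrays a group. Of the members, 2 passed; 1, Timp3, passed with a pseudocount of 1 or 16, with no filter and with a filter at the 60th percentile, where Adamts6 was not tested. Leaving out 1 array gave 0 to 1 members, 0 to 206 of all genes and 0 to 3 related genes, while 9 and 11 members had an unadjusted p under 0.05 without MMH-D3 array 1 or 2. Over all genes, 115 passed, 184 with a common median and 9 with no filter. The median of all genes moved to 0.102 without further normalization and to -0.106 with a common median, from 0.0305. Of the related genes 3 passed, 0 with no filter (23 at an unadjusted p under 0.05) and 1 without an intensity trend. The 2 members at least 4-fold apart between RLSC lines were 1 with the 60th percentile filter, and 0 passed the limma fit of 3 lines. Leaving out 1 array gave differences of -0.37 to 3.03 for Adamts5, -0.77 to 0.20 for Timp4 and -0.12 to 2.44 for Plau, none of which passed in the full fit; the sign turned without WTE14/1 for Adamts5 and Timp4 and without MMH-D3 array 2 for Plau. It also turned for Bsg (-0.14) with a common median and Plat (-0.28) with the median of probe sets. With the array pair as a block, 2 members passed, Timp3 and Mmp13. The causes of these changes were not tested. The RLSC labels carry no replicate numbers, so the samples could not be paired by label. The block above pairs the arrays as seen in the spiked-in controls. The deposited values split the same way. Values with 1 decimal or fewer made up 100% in MetE14/3 and in MMH-D3 array 1. They made up 1.41% in WTE14/1 and 1.32% in MMH-D3 array 2.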
